A study of Danio rerio with 6 samples.

Results

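Cell proliferation genes were followed in zebrafish (Danio rerio) cells purified by FACS through a sox10:dsRed reporter. Its red fluorescent protein marks the neural crest and cell types that descend from it. Markers of other cell types were also detected in every library, so the sorted cells need not be only these. The members were 8 genes chosen by name for their known roles in dividing cells: pcna, mcm5, ccna2, cdk1, ccnb1, top2a, aurkb and mki67. They are 8 of the 27726 genes listed, and all 8 were among the 20463 genes tested. The study compared 3 libraries from larvae labelled Shoc2-/- with 3 libraries from WT larvae, all sorted at 6 days post fertilization and all carrying the reporter. The mutants were made with CRISPR/Cas9, and the sample titles call them D22, a name that the labels do not explain. The Shoc2 protein is a scaffold in the RAS-ERK pathway, which relays growth factor signals and, in many cells, drives entry into the cell cycle. The labels do not say how many larvae or clutches went into a library, so p-values measure the spread between these libraries, which may be technical in part.

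A dividing cell passes through DNA replication and then mitosis, and most of the 8 genes are transcribed mainly in cells that are doing so. Licensing proteins such as the MCM complex and the clamp encoded by pcna serve replication. Cyclins with their kinase cdk1 drive the cell into and through mitosis, where topoisomerase and Aurora kinase act on the chromosomes. In zebrafish larvae, neural crest derivatives still hold dividing cells, among them pigment, glial and cartilage precursors. In sorted bulk RNA, fewer dividing cells and less of these transcripts per cell cannot be told apart.

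The values are normalized counts, that is, reads per gene divided by a size factor for each library. Between 20088591 and 21802683 reads were recovered in 5 libraries, and the total of normalized counts in all 6 lay between 20280582 and 21206351. In those 5 libraries the fewest reads of a member were 306, for ccnb1 in mutant replicate 2 and equally in wild-type replicate 1. The exact 95% Poisson interval of 273 to 342 covers counting error only. Wild-type replicate 3, not among those 5, had the lowest normalized count of any member, 263 for cdk1. The transcript of shoc2 had 844, 798 and 673 normalized counts in mutant replicates 1 to 3, against 1194, 959 and 1083 in wild-type replicates 1 to 3. Mutant libraries all lay below wild-type libraries, by -0.48 in log2 (SE 0.15), and limma with Benjamini-Hochberg adjustment over all genes tested gave an adjusted p of 0.636. In the whole table limma called 1 gene at an adjusted p under 0.05, or 0.00489% of those tested.

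None of the 8 proliferation genes passed the threshold in limma with Benjamini-Hochberg adjustment, where their adjusted p ran from 0.837 to 0.997. At an unadjusted p under 0.05, 1 of the 8 was lower in mutants, mcm5, and 0 were higher. Among all genes tested 5.8% passed that level, 2.91% lower and 2.88% higher in mutants. Fold changes above 0 were found for 6 members and below 0 for 2. Over all 20463 genes tested 10536 were above 0 and 9927 below, the background for the counts of signs that follow. The median log2 fold change of the members was 0.11, against 0.01 over all genes tested. That median was -0.08 without mutant replicate 1, 0.20 without mutant replicate 2 or 3, 0.05 without wild-type replicate 1, 0.28 without wild-type replicate 2 and -0.02 without wild-type replicate 3. Without both mutant replicate 1 and wild-type replicate 2, a setting chosen after the data were seen, it was 0.09. For 7 members the range within each genotype was wider than the difference between the genotype means, and for mcm5 that held in mutants but not in wild type. Since no transcript lengths were used, genotypes were compared within a gene, and sums over genes given below weigh most on genes with high counts. Fold changes below are on the log2(normalized count + 1) scale.

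**Figure D1:**
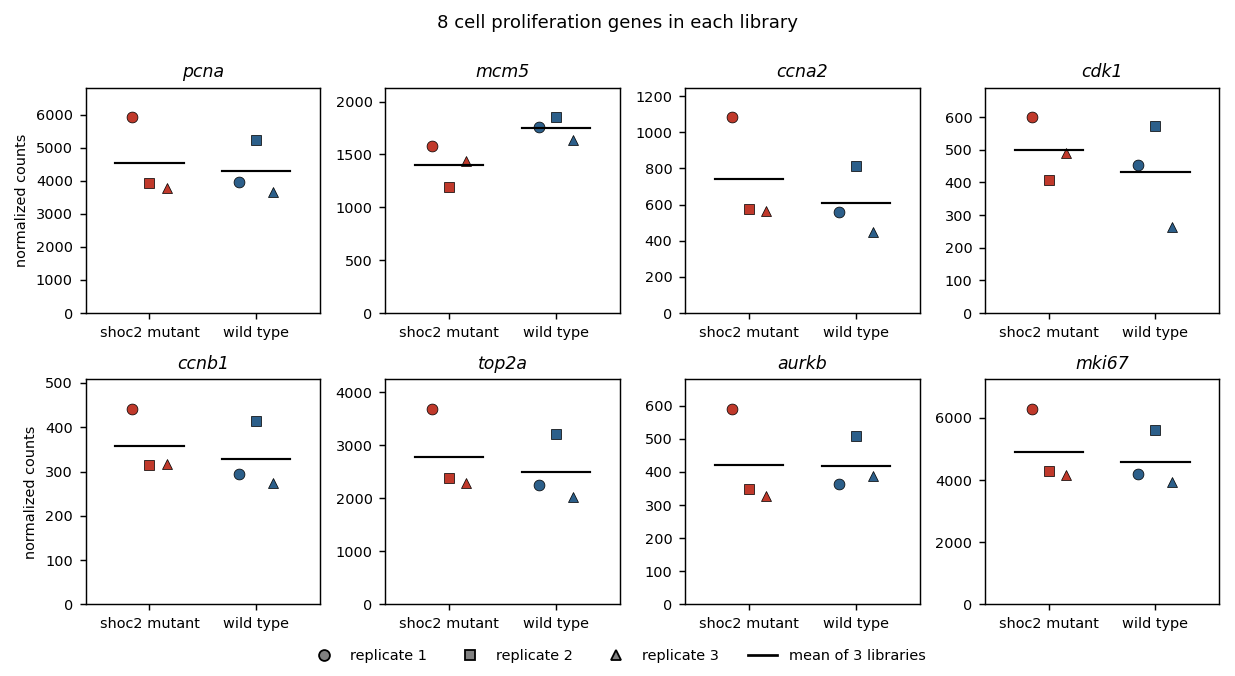
Normalized counts (vertical axes, each from 0) of the 8 genes in the 3 shoc2 mutant and 3 wild-type libraries; each point is a library, its shape the replicate number, and the bar the mean of 3. Mutant replicate 1 and wild-type replicate 2 are the highest points in 7 panels, and mcm5 is the panel in which the genotypes do not overlap.

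Among the replication genes, pcna (ENSDARG00000054155) encodes the sliding clamp that holds DNA polymerase on its template. It had 5914, 3934 and 3789 normalized counts in mutant replicates 1 to 3, against 3953, 5242 and 3673 in wild-type replicates 1 to 3. Mutant replicate 1 and wild-type replicate 2 were high, the other 4 libraries lay close together, and the genotypes overlapped. The means were 4545 ± 1187 in mutants and 4289.6 ± 837 in wild type (SD, n = 3 each). Between genotypes the log2 fold change was 0.07 (SE 0.20), with a 95% interval of -0.38 to 0.52 and a limma adjusted p of 0.989.

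The gene mcm5 (ENSDARG00000019507) encodes a subunit of the MCM2-7 helicase, which is loaded at origins before replication and unwinds the DNA during it. It had 1578, 1194 and 1434 normalized counts in mutant replicates 1 to 3, against 1758, 1851 and 1636 in wild-type replicates 1 to 3. Every mutant library lay below every wild-type library, and mutant replicate 2 was the lowest. Means were 1402 ± 194 in mutants and 1748 ± 107 in wild type (SD, n = 3 each), a ratio of 0.798 on the log scale. The log2 fold change was -0.33 (SE 0.14), with a 95% interval of -0.64 to -0.01. The unadjusted limma p was 0.0431 and the adjusted p 0.837, so the difference did not pass the threshold. An exact two-sided permutation test of this gene gave p = 0.1, the smallest that 3 against 3 libraries allow. It was the only member of the 8 without overlap between genotypes, where 10.6% of all genes tested had none, 5.29% higher and 5.28% lower in mutants.

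The cyclins and their kinase came next in the cell cycle. The gene ccna2 (ENSDARG00000011094) encodes cyclin A2, which acts in S phase and at the entry to mitosis. It had 1082, 574 and 563 normalized counts in mutant replicates 1 to 3, against 560, 814 and 449 in wild-type replicates 1 to 3. It spread the most of the 8 genes, by 2.41-fold between mutant replicate 1 and wild-type replicate 3. Its log2 fold change was 0.26 (SE 0.29, 95% interval -0.41 to 0.92), with a limma adjusted p of 0.969.

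The kinase gene cdk1 (ENSDARG00000087554) encodes the driver of mitotic entry. It had 599, 408 and 489 normalized counts in mutant replicates 1 to 3, against 455, 574 and 263 in wild-type replicates 1 to 3. Wild-type replicate 3 was low for this gene, and the genotypes overlapped. The log2 fold change was 0.27 (SE 0.28, 95% interval -0.37 to 0.91; limma adjusted p 0.967). Without wild-type replicate 3 it was -0.05.

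Cyclin B1, the mitotic partner of Cdk1, is encoded by ccnb1 (ENSDARG00000051923). It had 442, 314 and 317 normalized counts in mutant replicates 1 to 3, against 294, 415 and 275 in wild-type replicates 1 to 3. Again a library of each genotype stood above the other 4. Limma gave a log2 fold change of 0.13 (SE 0.22, 95% interval -0.37 to 0.63) at an adjusted p of 0.981.

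Of the genes that act on mitotic chromosomes, top2a (ENSDARG00000024488) encodes the topoisomerase that untangles replicated DNA. It had 3691, 2375 and 2295 normalized counts in mutant replicates 1 to 3, against 2250.3, 3212 and 2034 in wild-type replicates 1 to 3. The order of libraries was that of ccna2. Its log2 fold change was 0.15 (SE 0.22, 95% interval -0.36 to 0.66), with a limma adjusted p of 0.981.

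The gene aurkb (ENSDARG00000037640) encodes the kinase of the chromosomal passenger complex, which corrects the attachment of chromosomes to the spindle. It had 591, 347 and 328 normalized counts in mutant replicates 1 to 3, against 364, 508 and 386 in wild-type replicates 1 to 3. Apart from mutant replicate 1, the mutant libraries lay below all 3 wild-type libraries. The means were nearly equal, 422 ± 147 in mutants and 419 ± 77.6 in wild type (SD, n = 3 each). Mutants differed from wild type by a log2 fold change of -0.03 (SE 0.25, 95% interval -0.59 to 0.53), with a limma adjusted p of 0.997.

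The proliferation marker mki67 (ENSDARG00000091150) encodes Ki-67, a protein that coats mitotic chromosomes. It had 6294, 4282 and 4161 normalized counts in mutant replicates 1 to 3, against 4205, 5609.7 and 3924 in wild-type replicates 1 to 3. Its pattern was close to that of pcna, with the same high libraries. The log2 fold change was 0.09 (SE 0.19, 95% interval -0.35 to 0.53), with a limma adjusted p of 0.983.

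These 95% intervals are not adjusted for the number of genes. For the 7 members other than mcm5 their upper ends lay between 0.52 and 0.92 and their lower ends between -0.59 and -0.35. The widest were those of ccna2, cdk1 and aurkb.

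Apart from mcm5, the members varied together across libraries, and their high libraries came from both genotypes. Relative to each gene's own mean, the log2 values of the 8 genes averaged 0.44, -0.18 and -0.14 in mutant replicates 1 to 3, against -0.11, 0.30 and -0.31 in wild-type replicates 1 to 3. Mutant replicate 1 was the highest library for 7 of the 8 genes, and wild-type replicate 3 was the lowest for 6. Over all 20463 genes tested these counts were 4058 and 3862. Mutant replicate 1 and wild-type replicate 2 were the top pair of libraries for 7 of 8 members, all but mcm5. This measure was chosen after the values were seen. Over all genes tested the same pair was on top for 12.2%. Over these 6 libraries the 21 pairs of members that leave out mcm5 had Pearson correlations of log2 values from 0.53 to 1.00 with a median of 0.95. The 7 pairs with mcm5 had correlations from 0.17 to 0.47. These correlations describe 6 libraries, which all genes share.

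The summed level of the 8 genes was 20190.0, 13427 and 13376 normalized counts in mutant replicates 1 to 3, against 13839, 18226 and 12640.0 in wild-type replicates 1 to 3. As a share of each library's total that was 0.0958%, 0.0649% and 0.066% in mutants and 0.0667%, 0.0859% and 0.0621% in wild type. Mutant replicate 1 and wild-type replicate 2 were the highest by share as well as by sum. The members with the highest counts, mki67 and pcna, weigh most in both.

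Markers of the sorted cells did not share a single pattern across those libraries. Of 12 neural crest and derivative markers 7 were matched by symbol, and none was at 0 in any library. Their summed level was 38148, 58872 and 57972 normalized counts in mutant replicates 1 to 3, against 70771, 30662 and 39099 in wild-type replicates 1 to 3. The lowest sum of each genotype was in the library with the highest sum of proliferation genes. Wild-type replicate 3 had the lowest sum of proliferation genes, yet its marker sum of 39099 was close to the 38148 of mutant replicate 1. The marker sum is made up mostly of mbpa, sox10 and pmela. The sox10 transcript itself had 13953, 30211 and 27904 normalized counts in mutants, against 25782, 8573 and 14619.8 in wild type. The myelin gene mbpa had 10739.6, 19519 and 15004 in mutants, against 33409, 12621 and 14838 in wild type. Unlike these, pmela was lowest among mutants in replicate 2, with 8930, 5553 and 9928 in mutants, against 6831, 5193 and 5505 in wild type. For 2 of the 7, tfap2a and crestin, the top pair of libraries was that of the proliferation genes. The counts of crestin were low, at 23.2, 9.24 and 22.4 in mutants, against 23.1, 27.4 and 9.1 in wild type. Its top pair therefore rests on very small differences between libraries.

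Of 29 markers of other cell types 24 were matched, and none of these was at 0 in any library either. Their summed level was 44918, 65925 and 38809 in mutant replicates 1 to 3, against 45909, 135260.0 and 109225 in wild-type replicates 1 to 3. Without the epidermal keratins krt4 and krt5 it was 9474, 14060.0 and 9415 in mutants, against 10641, 10246 and 17410.0 in wild type. The 11 blood and leukocyte markers among them summed to 1689, 2897 and 1997 normalized counts in mutants, against 1987, 2411 and 4386 in wild type. Of the 23 markers of other cell types tested, 19 had fold changes below 0 and 4 above, with a median log2 fold change of -0.30. At an unadjusted limma p under 0.05, 3 were lower in mutants (lck, rag2 and krt5) and 0 higher, beside 2.91% and 2.88% of all genes, and 0 passed after adjustment. The smallest limma fold changes of this list were those of the lymphocyte kinase lck (log2 fold change -1.41, SE 0.45, adjusted p 0.652) and the recombinase rag2 (-1.13, SE 0.47, adjusted p 0.823). The largest in limma were those of the embryonic globin hbae1.1 (1.00, SE 0.67, adjusted p 0.952) and the progenitor filament nes (0.36, SE 0.18, adjusted p 0.905). Without wild-type replicate 1, where hbae1.1 had 11.5 normalized counts, the log2 fold change of hbae1.1 was 0.25. The part of these markers in the levels of the proliferation genes was not tested.

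The wider cell cycle was read from lists of 99 symbols, of which 88 were matched, giving 87 further genes tested. None of the 87 passed the adjusted threshold in limma, and 6 had an unadjusted p under 0.05, 2 higher and 4 lower in mutants, beside 5.8% of all genes tested at that level. Their median log2 fold change was 0.03. Without overlap between genotypes were 2 genes higher and 2 lower in mutants, beside 5.29% and 5.28% of all genes tested. Mutant replicate 1 and wild-type replicate 2 were the top pair of libraries for 49 of the 87, or 56.3%, beside 12.2% of all genes.

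**Figure D2:**
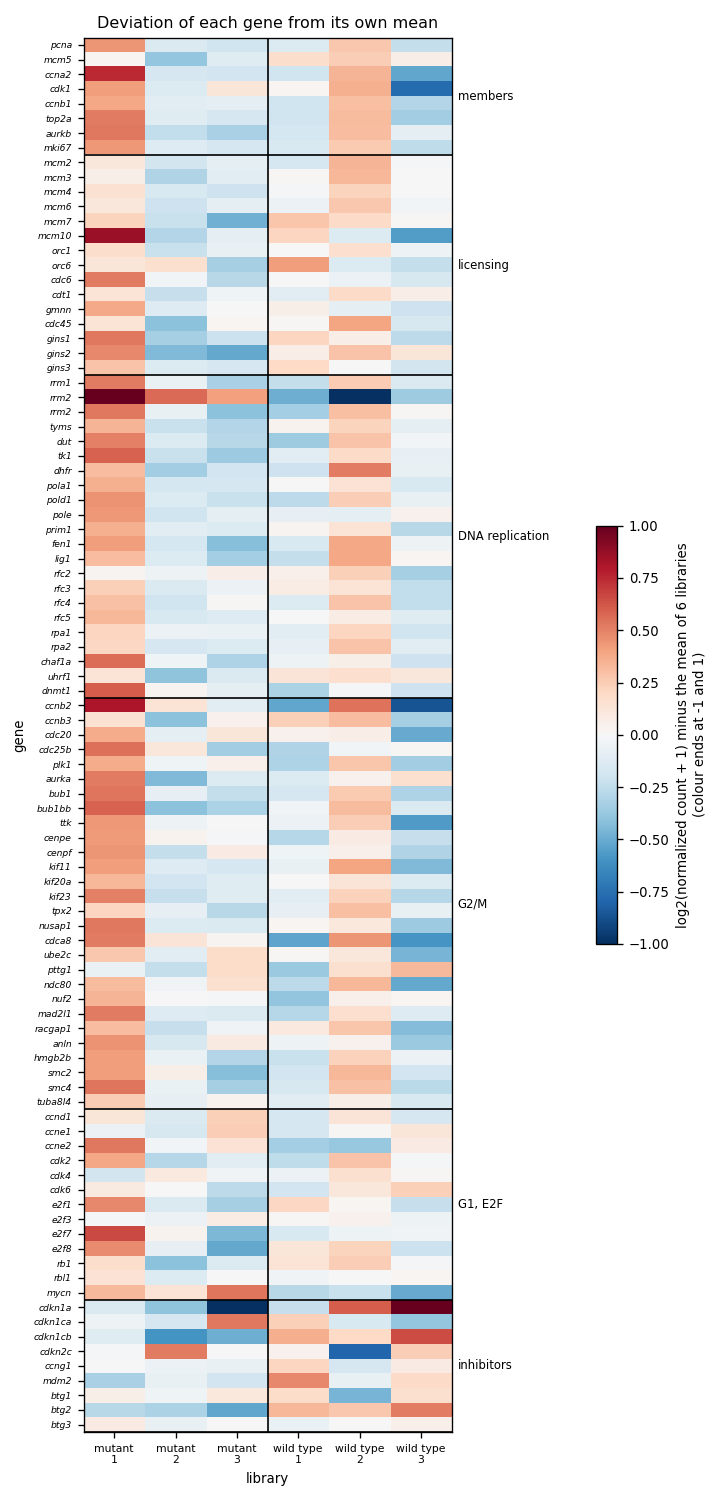
Each row is a gene and each column a library, with the 3 mutant libraries on the left; colour gives log2(normalized count + 1) minus the gene's mean over 6 libraries. Mutant replicate 1 and wild-type replicate 2 are the top pair for 7 of 8 members and 18 of 22 DNA replication genes. They are on top for 20 of 28 mitosis genes and 8 of 15 licensing genes. In the list of inhibitors and related genes this pair is on top for 0 of 9 genes. Over all genes tested the share is 12.2%.

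The replication licensing list, whose products load and fire the MCM helicase, had 15 genes tested, with a median log2 fold change of -0.10, 12 fold changes below 0 and no overlap-free gene. The other 5 subunits of MCM2-7 all had fold changes below 0, between -0.32 and -0.11 in log2, as mcm5 did. The smallest limma adjusted p of the 5 was 0.93. Of the 5, mcm2, mcm3, mcm4 and mcm6 were added after the values were seen. All were measured in the same libraries, so their signs are not separate observations. For 4 of these 5 the top pair of libraries was again mutant replicate 1 and wild-type replicate 2, and mutant replicate 1 was the highest for 0. With equal library totals in place of the deposited scaling the 5 still lay below 0, from -0.31 to -0.10, and without wild-type replicate 2 mcm2 was at 0.04 and the other 4 below 0. A second identifier named mcm6 (ENSDARG00000033231), given for the shared name after its values were seen, fell below the filter on low values and was not tested. It had 0.967, 3.08 and 1.86 normalized counts in mutants, against 7.69, 6.33 and 7.08 in wild type, without overlap. For mcm7 the values were 2663, 1952 and 1631 normalized counts in mutant replicates 1 to 3, against 2755, 2593 and 2296 in wild-type replicates 1 to 3. Mutant replicate 1 lay within the wild-type range and the other mutant libraries below it (log2 fold change -0.32, SE 0.18). For mcm3 they were 1568, 1221 and 1394 in mutants, against 1515, 1895 and 1509 in wild type, so the genotypes overlapped there too. The GINS subunit gene gins2 had a log2 fold change of -0.32 (SE 0.29). The replication factor gene mcm10 had 0.32 (SE 0.35), and geminin, gmnn, an inhibitor of licensing, had 0.17 (SE 0.21).

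The list of DNA replication and nucleotide supply had 22 genes tested, with a median log2 fold change of 0.03. Mutant replicate 1 and wild-type replicate 2 were on top for 18 of them. A gene listed as rrm2 (ENSDARG00000020711), the small subunit of ribonucleotide reductase that makes DNA precursors, had 161, 87.3 and 78.3 normalized counts in mutant replicates 1 to 3, against 41.4, 19.0 and 45.5 in wild-type replicates 1 to 3. All mutant libraries lay above all wild-type libraries, by 1.61 in log2 (SE 0.42), at an unadjusted limma p of 0.00428 and an adjusted p of 0.518. A second identifier with the same symbol (ENSDARG00000078069), given because of the shared name and chosen after its values were seen, had 566, 373 and 295 in mutants, against 309.7, 483 and 396 in wild type, a log2 fold change of 0.02 (SE 0.26). Reads that fit both copies could be split between them, since the counting options are not stated. The maintenance methyltransferase gene dnmt1 had a log2 fold change of 0.36 (SE 0.19, adjusted p 0.91). Its partner uhrf1 had -0.27 (SE 0.15, adjusted p 0.919), and dhfr, which serves thymidine synthesis, had -0.16 (SE 0.25).

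The list for G2/M and mitosis had 28 genes tested. Mutant replicate 1 was the highest library for 24 of them, and wild-type replicate 3 was the lowest for 15. Beside this stand 4058 and 3862 of all 20463 genes tested. The median log2 fold change was 0.15, with 23 above 0, and the smallest limma adjusted p was 0.924. The extremes were ccnb2, a second B-type cyclin, at 0.56 (SE 0.43), and cdca8, a partner of Aurora B, at 0.45 (SE 0.30), against ccnb3 at -0.14 (SE 0.24) and the spindle factor tpx2 at -0.10 (SE 0.17). For cdca8 the values were 267, 203 and 189 normalized counts in mutant replicates 1 to 3, against 129, 253 and 123 in wild-type replicates 1 to 3, which overlap.

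**Figure D3:**
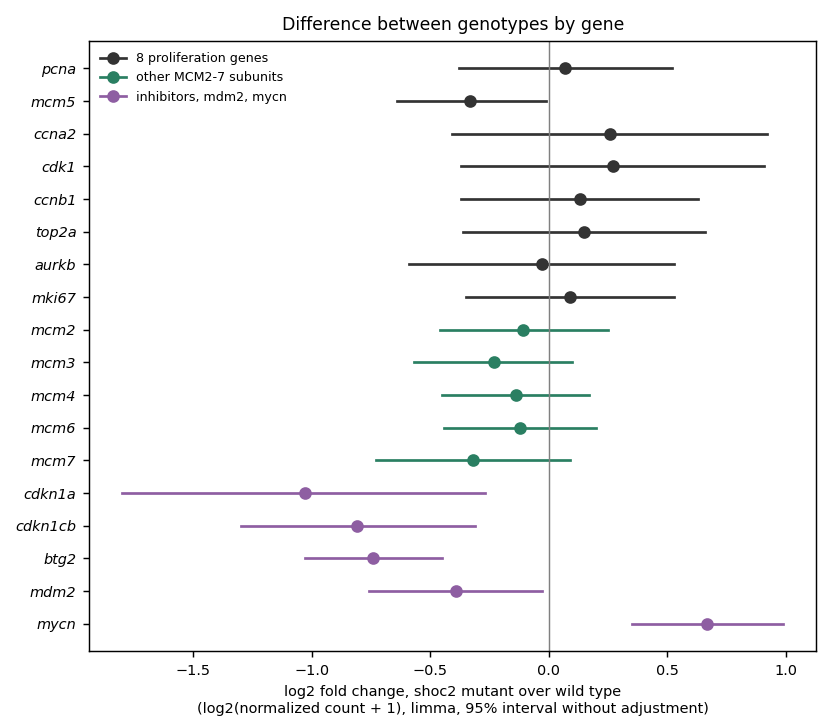
Log2 fold change of shoc2 mutant over wild type (horizontal axis) for the 8 genes, the other MCM2-7 subunits and 5 genes of the G1 and inhibitor lists; points are limma estimates from 3 libraries a genotype and lines are 95% intervals without adjustment. The intervals of 7 members span 0, and that of mcm5 ends at -0.01. Those of cdkn1a, cdkn1cb, btg2, mdm2 and mycn lie further from 0, that of mdm2 ending at -0.03. These 5 are the genes of the G1 and inhibitor lists with an unadjusted limma p under 0.05. Their intervals therefore leave out 0 by that choice.

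The G1 list holds cyclins, kinases and transcription factors that control entry into the cycle. Of its 13 genes tested, mutant replicate 1 and wild-type replicate 2 were the top pair for 3, beside 12.2% of all genes tested. The median log2 fold change was 0. The transcription factor gene mycn, a growth regulator of the Myc family, had 2942, 2592 and 3407 normalized counts in mutant replicates 1 to 3, against 1944, 2018 and 1659 in wild-type replicates 1 to 3. Every mutant library lay above every wild-type library. Its log2 fold change was 0.67 (SE 0.14), with an unadjusted limma p of 0.00114 and an adjusted p of 0.366, which did not pass. Cyclin E2, ccne2, had 0.43 (SE 0.21, adjusted p 0.905), the retinoblastoma gene rb1 had -0.25 (SE 0.18) and cdk6 had -0.11 (SE 0.16). Cyclin D1, ccnd1, a classic output of ERK signalling that was singled out here for that role after its values were seen, had 5344, 4455 and 5786 normalized counts in mutants, against 4372, 5376 and 4366 in wild type. The genotypes overlapped, and the log2 fold change was 0.14 (SE 0.14, 95% interval -0.18 to 0.46, adjusted p 0.964).

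The list of cell cycle inhibitors and related genes had 9 genes tested. Mutant replicate 1 and wild-type replicate 2 were on top for 0 of them, beside 12.2% of all genes tested. From 9 genes, 0 cannot be told apart from that share. The median log2 fold change of the list was -0.09, with 4 fold changes above 0 and 5 below. At an unadjusted limma p under 0.05, 4 of the 9 were lower in mutants and 0 higher, and 0 passed after adjustment, where 2.91% of all genes tested were lower and 2.88% higher at that level. The kinase inhibitor cdkn1a, known as p21, had 1911, 1599 and 1054 normalized counts in mutant replicates 1 to 3, against 1802, 3209 and 4792 in wild-type replicates 1 to 3. Wild-type replicate 1 lay within the mutant range, and the other wild-type libraries lay above it. The log2 fold change was -1.03 (SE 0.34, adjusted p 0.67).

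A second kinase inhibitor, cdkn1cb, of the p57 family, had 176, 126 and 136 normalized counts in mutants, against 246, 219.6 and 301 in wild type. The genotypes did not overlap, and the log2 fold change was -0.81 (SE 0.22, adjusted p 0.52). At the other end of the list stood cdkn2c at 0.34 (SE 0.39) and cdkn1ca at 0.20 (SE 0.23), which overlapped between genotypes.

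Another 2 genes of this list, btg2 and mdm2, were singled out after their values were seen. The antiproliferative gene btg2, which in mammals is an early response gene, had 33983, 33117 and 28766 normalized counts in mutant replicates 1 to 3, against 51707, 49714 and 58638 in wild-type replicates 1 to 3. Every mutant library lay below every wild-type library. Its log2 fold change was -0.74 (SE 0.13), with an unadjusted limma p of 0.000304 and an adjusted p of 0.227. In DESeq2 on the 5 libraries other than wild-type replicate 3 its adjusted p was 0.0227, and over all 16 alternatives it ran from 0.0227 to 0.796. The ubiquitin ligase gene mdm2 had -0.39 (SE 0.16, adjusted p 0.82), with 1004, 1197 and 1099 in mutants, against 1753, 1192 and 1435 in wild type.

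**Figure D4:**
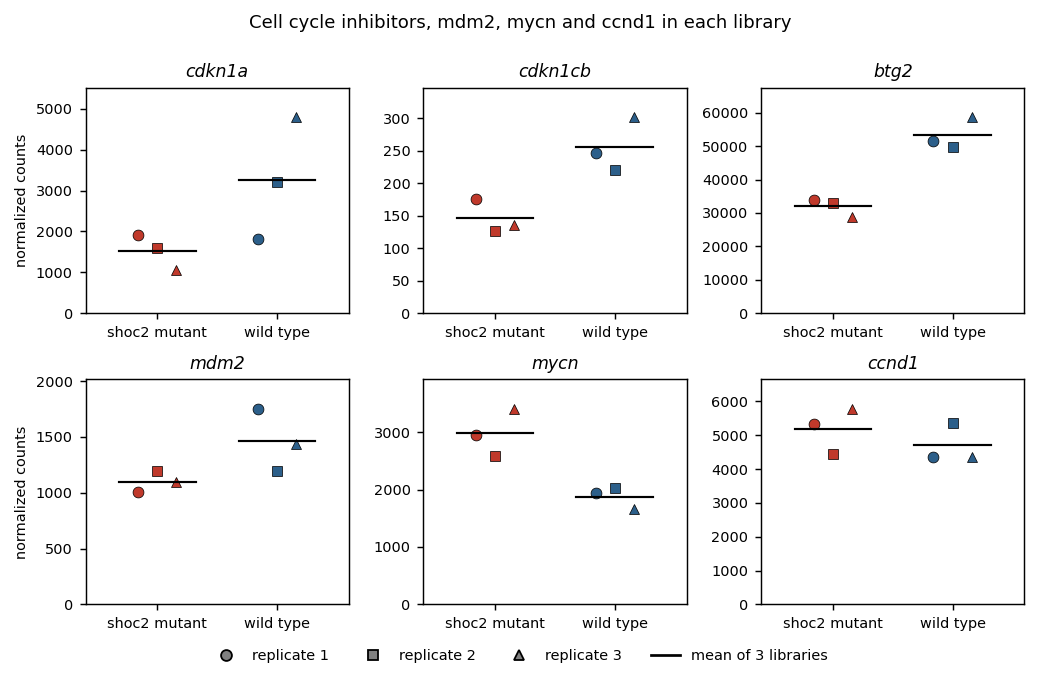
Normalized counts (vertical axes, each from 0) of 4 genes of the inhibitor list and of mycn and ccnd1 in 3 shoc2 mutant and 3 wild-type libraries; points are libraries, shapes replicate numbers and bars means of 3. The genotypes do not overlap for cdkn1cb, btg2 and mycn, and none of the 6 passed the adjusted threshold in limma. Of the 9 genes tested in the inhibitor list, the 4 shown are those with an unadjusted limma p under 0.05. Over the 87 list genes tested, 2 were higher and 2 lower in mutants without overlap, beside 10.6% of all genes tested.

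The genes most like the members were ranked by the Pearson correlation of log2 values with the members' mean profile over the 6 libraries, as a description. The 10 closest non-member genes had r from 0.987 to 0.995. In order they were top2b, st8sia2, a gene without a symbol (ENSDARG00000099194), leo1, lhx5, clp1, col10a1, adcyap1r1, nek2 and dcaf10. The closest, top2b, encodes a second type II topoisomerase and had 4438, 3614 and 3706 normalized counts in mutant replicates 1 to 3, against 3767, 4203 and 3559 in wild-type replicates 1 to 3. Of the 20455 non-member genes tested, 82 had r above 0.95, or 0.401%, and of the 87 genes of the wider cell cycle lists 6 did, or 6.9%.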

How the data were processed

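RNA was sequenced from sox10:dsRed-positive sorted cells, 3 shoc2 mutant and 3 wild-type libraries, grouped by source name. The authors deposited a table of normalized counts (a signal), named as HTSeq output. The submitters' processing notes name FastQC 0.11.7, STAR 2.6, Cuffnorm and the build GRCz11, without roles. The counting options and annotation are not given in the sources used here. Values were whole multiples of a step within 0.01 reads. This held for wild-type replicate 3 too, at a step of 1.011. The unit check used here gives no verdict on a step so near 1, so its reads entered no count test.

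Symbols came from a gene name table that pairs 25324 of the 27726 identifiers, matched without regard to case, and are written in lower case. Members, lists and tests were chosen with earlier results of these data known. No sequences were used here. A gene of the inhibitor list is not reported here and is left out of the counts over lists.

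Genes with at least 10 normalized counts in at least 3 libraries were kept. Genotypes were compared with limma 3.58.1 (mean-variance trend) in R 4.3.3 on log2(normalized count + 1), which understates changes of low genes, with Benjamini-Hochberg adjustment over all genes tested and a threshold of 0.05. The exact permutation test used every way of dividing the 6 libraries evenly. The fit was tested on simulated data with changes much larger than those of the members. That test does not show whether differences of the members' size would be found. As alternatives, pseudocount, filter, scaling, trend, replicate block and libraries were varied, and edgeR 4.0.16 and DESeq2 1.42.0 were run on 5 libraries.

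All 8 members are named. From each list the 2 largest and 2 smallest fold changes are named, with all tested MCM2-7 subunits. Any other gene of the cell cycle lists is marked in the text as chosen after its values were seen. The cell type markers mbpa, pmela, tfap2a, crestin and krt5 were also named after their values were seen. The subunits mcm2, mcm3, mcm4 and mcm6 were added to mcm7 after the values were seen.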

Additional observations from a re-analysis of the deposited data

How the results depend on the processing

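No member passed the adjusted threshold under any of the 16 alternatives run, and mcm5 stayed below 0 under all of them, between -0.42 and -0.22 in log2 (adjusted p 0.686 to 1). An unadjusted p under 0.05 was reached by mcm5 under 6 of the 16. The other 7 members, none of them called, each changed sign under 1 to 4 alternatives, most of which left out mutant replicate 1 or wild-type replicate 3. The median of the members lay between -0.08 and 0.28 in fits on 5 libraries by limma. The count of all genes past the threshold was 1, all lower in mutants; it was 3 with no filter on low values, 0 without the variance trend (1227 at an unadjusted p under 0.05), 0 with the replicate block (906) and 0 to 4 when each library was dropped in turn (921 to 1560), the 4 being without wild-type replicate 2. In settings chosen with the data in view, it was 0 without both mutant replicate 1 and wild-type replicate 2 (1084), 1 in edgeR on 5 libraries and 60 in DESeq2 on the same 5 (21 higher, 39 lower), where limma gave 0. Of the wider cell cycle lists 0 genes passed, and 1, btg2, did in DESeq2 on 5 libraries. The cause was not tested. Libraries with equal replicate numbers are not said to share a clutch, sort or day, so the numbers were not taken as pairs. Same-numbered libraries deviated from their genotype means with correlations of -0.202, -0.029 and -0.092 across genes. From so few libraries these cannot show whether a clutch or sort was shared. With the replicate block 0 members passed and the median was 0.11. Count tests and TMM scaling on all 6 libraries, and promoter motifs, were not run. In the 5 libraries with recovered reads each member had at least 306 reads. Wild-type replicate 3, which is not among them, was lower, at 263 normalized counts of cdk1 and 275 of ccnb1. Depth as a limit was not tested.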
